A study of Homo sapiens with 6 samples.

Results

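Genes of mucosal defence were followed in HT29, a human colon adenocarcinoma cell line, grown with or without NS398, which inhibits the prostaglandin-forming enzyme COX2 selectively. The 10 genes are LCN2, DUOX2, DUOXA2, NOX1, NOS2, PIGR, PI3, SLPI, LYZ and REG4. They are 10 of the 19775 genes with a probe set of their own on the HG-U133 Plus 2.0 array, and were read from the 18 probe sets, of 54675, whose annotation names one of them alone. Total RNA came from 3 samples labelled NS398-treated and 3 labelled control, with 1 array for each sample. The study's methods describe cells kept for 3 days in serum-free medium, with NS398 at the highest of 3 doses or with DMSO, the solvent of NS398, in the control. All arrays are thus of 1 cell line, grown without the leukocytes and microbes of a mucosa. The methods call the 3 samples of a group biological replicates, but the labels do not tie them to separate cultures, so errors measure the spread between these samples, which may be technical. The genes are linked by function, but they were chosen partly on their signal differences between these same groups of arrays, so their differences and calls below are descriptions.

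The intestinal epithelium defends its surface with secreted proteins that starve, lyse or bind bacteria, and with inhibitors that hold back proteases of neutrophils. It also has enzymes that make hydrogen peroxide or superoxide at the membrane, and others that make nitric oxide. Many of these genes are induced through receptors for microbial products and cytokines, by way of the transcription factors NF-kB, C/EBP and STAT. Antibodies of the IgA class reach the lumen through a receptor made by the same cells. LCN2 and DUOX2 are known for high expression in inflamed and neoplastic colon.

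Promoter sequence is shown for 5 of the genes because signals of this kind act through promoters. DUOX2 and DUOXA2 lie head to head on chromosome 15, so that 1 stretch of 153 bases separates the start of the oxidase gene from that of its maturation factor. All coordinates and sequences are those of the RefSeq table for GRCh38.p14, which held the promoters of 6 of the 10 genes, the sixth being PIGR. NOS2, PI3, SLPI and LYZ are not shown. The 250 bases before each start, or the stretch between the starts, were searched on both strands for the AP-1 element TGANTCA. The same was done for an element of the C/EBP family, TTGCNNAA. The third search was for the TATA box, as TATAAA. Elements of NF-kB and STAT were not searched for, so unmarked letters do not show that such elements are absent. Capitals mark the matches, which do not overlap.
LCN2, chr9:128149203-128149452, plus strand: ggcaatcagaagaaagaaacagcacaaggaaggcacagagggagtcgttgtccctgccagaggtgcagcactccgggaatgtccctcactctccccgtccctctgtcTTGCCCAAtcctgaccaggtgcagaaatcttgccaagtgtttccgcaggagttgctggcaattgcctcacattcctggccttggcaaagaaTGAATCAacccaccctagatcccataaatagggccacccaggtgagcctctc
DUOX2 and DUOXA2, chr15:45114173-45114325, plus strand, read towards DUOXA2: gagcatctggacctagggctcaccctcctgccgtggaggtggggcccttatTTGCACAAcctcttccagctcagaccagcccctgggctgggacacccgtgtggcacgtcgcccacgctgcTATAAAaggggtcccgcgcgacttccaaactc
NOX1, chrX:100874360-100874609, minus strand: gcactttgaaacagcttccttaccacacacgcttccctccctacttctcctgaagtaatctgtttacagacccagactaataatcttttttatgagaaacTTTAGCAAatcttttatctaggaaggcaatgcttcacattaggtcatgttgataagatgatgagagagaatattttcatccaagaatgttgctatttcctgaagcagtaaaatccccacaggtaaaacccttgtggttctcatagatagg
REG4, chr1:119811461-119811710, minus strand: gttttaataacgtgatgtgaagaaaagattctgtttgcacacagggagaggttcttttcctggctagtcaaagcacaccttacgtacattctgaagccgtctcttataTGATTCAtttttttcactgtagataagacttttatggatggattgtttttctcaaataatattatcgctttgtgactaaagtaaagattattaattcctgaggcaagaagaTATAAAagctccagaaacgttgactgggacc
LCN2 held a C/EBP match beginning 143 bases before the start and an AP-1 match 52 bases before. The AP-1 letters were found in 6.57% of the 35116 promoters of the table, C/EBP in 9.05% and TATAAA in 10.7%. A C/EBP match stood 150 bases before the start of NOX1 and 102 bases before that of DUOXA2, REG4 had AP-1 142 bases before its start, and a TATA match lay 31 bases before the start of REG4 and 32 before that of DUOXA2. PIGR had no match to these letters. These matches describe the sequence and do not show binding.

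Signals are the linear probe set values as deposited, scaled so that the mean without the highest and the lowest 2% is the same in each array. The file holds no detection calls, so background was taken, on each array, as the 95th percentile of 107 probe sets for olfactory receptors, genes that colon carcinoma cells are not known to use. It lay between 66.5 and 92.1. Of the 18 probe sets, 13 were above it on all 6 arrays, among them those of LCN2, NOX1, PI3, SLPI, LYZ and REG4. DUOX2, NOS2 and PIGR were above it on some arrays and DUOXA2 on none. Differences are in log2 units, NS398 minus control, each with its standard error (SE) and n = 3 arrays per group, from a limma fit over all probe sets whose prior variance follows the signal level. A probe set is said to have passed, and a gene to have risen or fallen, at an adjusted p of 0.05 (Benjamini-Hochberg) in this fit.

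Directions are those of the labels as deposited. Most genes of proliferation and apoptosis for which the text of the study names a direction had the opposite sign here. Among them CDKN3 (-1.61), CASP6 (-1.18), VEGFA (1.36) and CEBPB (1.32) passed. NOX1 and REG4 were also opposite to their direction in its lists. Not all genes ran this way. CDCA4 and DAPK3 of the same text, and CLDN8, PYY and CDH3, which it names as adenoma markers, had the sign given there. Of these only CDCA4 passed, and DAPK3 differed by only 0.05. Not every adenoma marker it names was compared. PTGS2, the gene of COX2, was lower in every NS398 array, with 285 in control and 117 in NS398 arrays (-1.29 ± 0.35), and did not pass. Whether the labels or the direction of the study's comparison were exchanged could not be settled from these values. LCN2 and SLPI were higher in the arrays labelled NS398, by 4.68-fold and 2.53-fold. NOX1 and REG4 were lower, by 2.32-fold and 2.17-fold. The other 6 genes did not pass. By their brightest probe sets, 4 of 10 genes thus passed, 2 in each direction, while 10.1% of all 19775 genes passed. Of the 18 probe sets 2 were higher and 5 lower, against 3.26% and 3.17% of all probe sets. In the same 4 genes the 2 groups of arrays did not overlap, which was the case in 30.6% of all genes. Because the genes were chosen with this comparison known, nothing is read from these shares. By plain limma, with 1 prior variance for all levels, 0 of the 10 genes passed, as against 24 of 54675 probe sets (0.0439%). By a SAM statistic computed here on the deposited signals it was also 0, as against 3 of 54675 probe sets. The study ran SAM on gcRMA values, which these signals are not, so this count does not repeat its test. Without adjustment 5 of the 10 had p under 0.05 by plain limma, as did 17.6% of all genes. The median log2 signal of all probe sets was 0.12 higher in the arrays labelled NS398. After median centring of the arrays, the differences were 2.11 for LCN2, 1.22 for SLPI, -1.34 for NOX1 and -1.24 for REG4, and each passed.

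**Figure D1:**
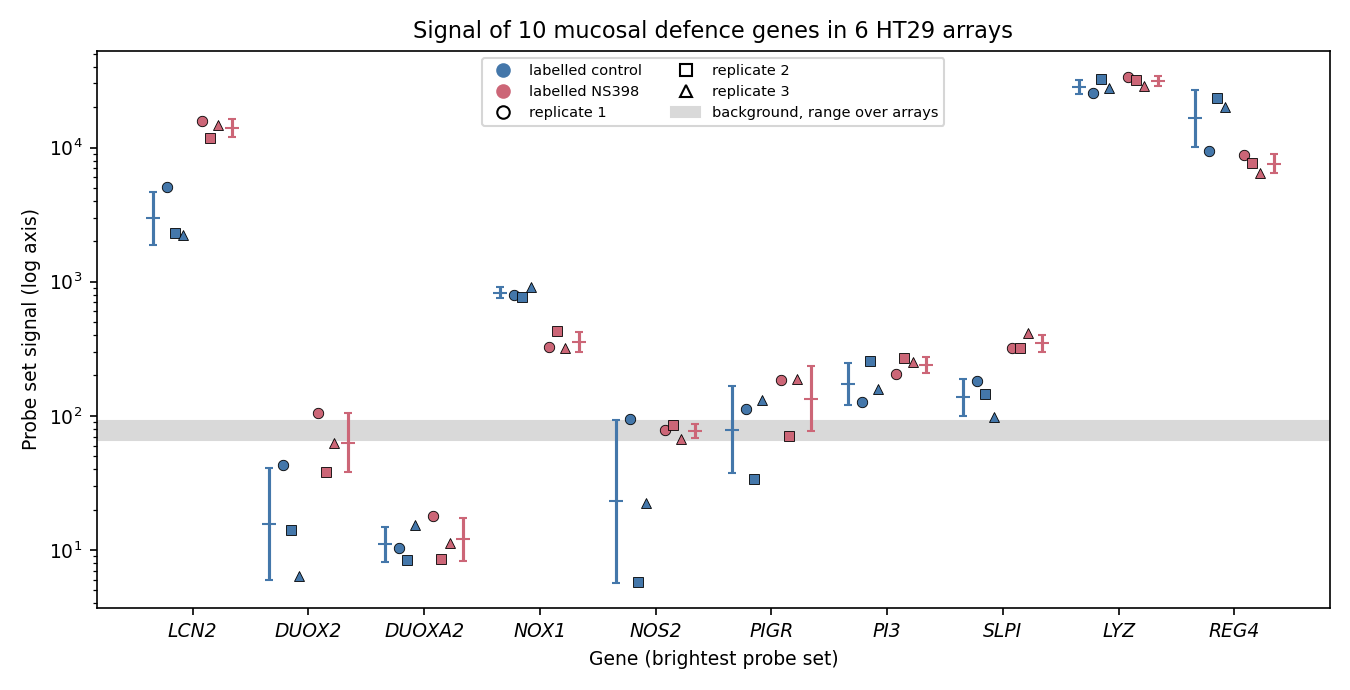
Signal of the brightest probe set of each of the 10 genes (log axis) in the 3 arrays labelled control (blue) and the 3 labelled NS398 (red), with point shapes for replicate numbers, bars for the mean of the log2 signal ± SD, and a grey band for the range of the background over the 6 arrays. LCN2 and SLPI lie higher and NOX1 and REG4 lower in all NS398 arrays, LYZ is bright and alike in both groups, and DUOX2, DUOXA2 and NOS2 lie mostly at or below the band.

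LCN2 (chr9:128149453-128153453) encodes lipocalin 2, a secreted protein that binds bacterial siderophores and so withholds iron. Its probe set 212531_at had signals of 5036, 2315 and 2239 in control replicates 1, 2 and 3 and of 15680, 11711 and 14608 in NS398 replicates 1, 2 and 3. Every array labelled NS398 was above every control, and control replicate 1 stood above the other controls. The difference was 2.23 ± 0.26 (SE), with 39.5 times background in control and 168 times in NS398 arrays. It passed in 14 of 16 alternative settings, plain limma and SAM being the exceptions, and ranged from 2.02 to 2.61, the last without control replicate 1.

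LYZ (chr12:69348381-69354234) encodes lysozyme, which cleaves the bacterial cell wall and is made in the gut by Paneth cells and in leukocytes. Its probe set 213975_s_at had signals of 25454, 32202 and 27671 in control and 33637, 32004 and 28547 in NS398 arrays. These are bright signals, 377 and 378 times background, and the groups overlapped. The difference of 0.15 ± 0.10 did not pass, and its 95% confidence interval was -0.08 to 0.37. The other probe set, 1555745_a_at, read 30594, 30622 and 29340 in control and 31178, 29830 and 24728 in NS398 arrays, a difference of -0.09 ± 0.09 with an interval of -0.29 to 0.12. Both intervals lie below that of LCN2, 1.66 to 2.79. Whether such bright signals are compressed was not tested.

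SLPI (chr20:45252239-45254564) encodes the secretory leukocyte protease inhibitor, which inhibits neutrophil elastase and is also antibacterial. Signals of its only probe set, 203021_at, were 182, 145 and 98.2 in control and 321, 318 and 412 in NS398 arrays. The groups were apart, with controls 1.83 times and NS398 arrays 4.20 times above background. SLPI rose by 1.34 ± 0.27, and passed in 13 of 16 alternatives. Besides plain limma and SAM, it missed the threshold without NS398 replicate 3, where the difference was 1.22.

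PI3 (chr20:45174902-45176544) encodes elafin, an elastase inhibitor of the same WAP domain family as SLPI. Both genes lie on chromosome 20. Its brighter probe set, 41469_at, had signals of 126, 258 and 158 in control and 207, 268 and 250 in NS398 arrays. Control replicate 2 was above 2 of the NS398 arrays. The difference of 0.48 ± 0.29 did not pass, with an interval of -0.16 to 1.11 that includes 0. Probe set 203691_at gave 98.8, 190 and 141 against 118, 245 and 156, a difference of 0.25 ± 0.35 (interval -0.51 to 1.02).

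NOX1 (chrX:100843324-100874359) encodes the catalytic subunit of the main superoxide-producing NADPH oxidase of colon epithelium. In its brightest probe set, 206418_at, signals were 802, 768 and 917 in control and 324, 432 and 322 in NS398 arrays. The controls were close to each other and all above the NS398 arrays. NOX1 fell by 1.22 on the log2 scale, with an SE of 0.17. It passed in 14 of 16 alternatives, all but plain limma and SAM, and in each that left out 1 array.

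NOX1 has 4 probe sets, and their values differed among themselves. In 207217_s_at the signals were 578, 692 and 597 in control and 264, 362 and 286 in NS398 arrays, a difference of -1.04 ± 0.18 that passed. In 207380_x_at, whose suffix marks probes that may also match other transcripts, they were 330, 358 and 371 against 183, 217 and 131, a difference of -1.02 ± 0.24 that passed, although only in 8 of 15 alternatives. In 210808_s_at they were 259, 309 and 303 against 231, 205 and 252. There the difference was only -0.34 ± 0.20 and did not pass, while the groups were still apart. The mean over the 4 probe sets differed by -0.91 and passed when tested with 1 value per gene. The differences between the probe sets were not tested, and which isoforms they read was not determined here.

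DUOX2 (chr15:45092650-45114172) encodes a dual oxidase that releases hydrogen peroxide at the apical membrane, and DUOXA2 (chr15:45114326-45118421) the factor that brings it to the cell surface. DUOX2 had signals of 43.3, 14 and 6.4 in control and 106, 38.4 and 62.4 in NS398 arrays. No control array and only NS398 replicate 1 was above background, and control replicate 1 exceeded NS398 replicate 2. The measured difference was 2.01 ± 0.82 and did not pass (interval 0.20 to 3.82). It passed in 0 of 15 alternatives, where it was 0.93 to 2.74. Since the control signals are only bounds and the bound gave a ratio under 1, no fold is given.

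DUOXA2 had signals of 10.3, 8.5 and 15.4 in control and 17.9, 8.6 and 11.2 in NS398 arrays. All 6 were below background, so that a difference could not be measured in either direction. The fitted value was 0.12 ± 0.85. The intergenic stretch printed above for this gene pair therefore belongs to 2 transcripts of which 1 was above background on 1 array and the other on none.

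NOS2 (chr17:27756766-27800529) encodes the inducible nitric oxide synthase. Its signals were 94.6, 5.8 and 22.6 in control and 79.0, 86.2 and 67.2 in NS398 arrays. Control replicate 1 was the highest of the 6 and the only one above background. The controls had an SD of 2.01 on the log2 scale and the NS398 arrays one of 0.18. The difference of 1.74 ± 0.87 did not pass and was 0.74 to 2.75 under the alternatives. The spread of the controls at this level is wider than the difference.

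REG4 (chr1:119794017-119811460) encodes a secreted C-type lectin of the REG family, made by deep crypt secretory and enteroendocrine cells and by mucinous tumours. Signals of its brightest probe set, 223447_at, were 9459, 23322 and 20202 in control and 8832, 7685 and 6427 in NS398 arrays. The groups did not overlap, but control replicate 1 stood close to NS398 replicate 1 and far below the other controls. REG4 fell by 1.12 on the log2 scale, with an SE of 0.27. It passed in 8 of 16 alternatives. Without control replicate 1 the difference was -1.52, and it missed the threshold without control replicate 2 (-0.87), control replicate 3 (-0.97) or any 1 of the NS398 arrays, replicate 1 (-1.23), replicate 2 (-1.13) and replicate 3 (-0.998).

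In the other probe sets of REG4 the groups were also apart, and control replicate 1 was again the lowest control. In 1554436_a_at the signals were 9372, 22370 and 21265 in control and 8492, 6900 and 5368 in NS398 arrays, a difference of -1.28 ± 0.29 that passed. In 238984_at they were 185, 758 and 566 against 164, 174 and 132, a difference of -1.47 ± 0.43 that did not pass. All 3 read the same RNA samples, so they do not add replicates.

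PIGR (chr1:206928522-206946466) encodes the polymeric immunoglobulin receptor, which carries IgA across the epithelium. Probe set 204213_at had signals of 113, 33.7 and 131 in control and 186, 70.3 and 187 in NS398 arrays, with replicate 2 lowest in each group. The other, 226147_s_at, had 31.3, 105 and 83.3 against 13.0, 57.1 and 40.8. The differences, 0.77 ± 0.56 and -1.06 ± 0.71, had opposite signs and neither passed. Both lie around background, the second on no array labelled NS398 above it, and the mean of both differed by -0.15.

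**Figure D2:**
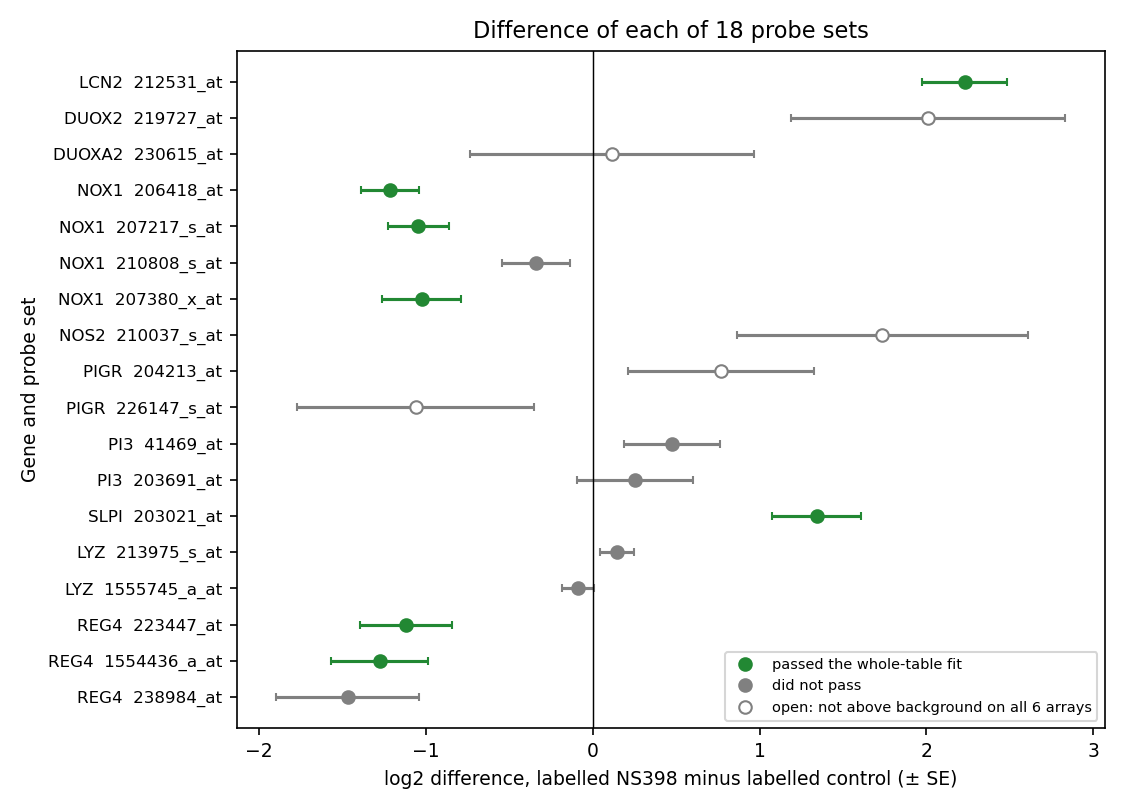
Difference of each of the 18 probe sets in log2 units (NS398 minus control, horizontal axis) with its SE, green where it passed the fit over all probe sets and open where the probe set was not above background on all 6 arrays. The 4 probe sets of NOX1 range from -1.22 to -0.34 and the 3 of REG4 from -1.47 to -1.12, while the 2 of PIGR have opposite signs.

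Control replicate 1 recurs in these values. Among the 4 genes that passed it was the control nearest to the NS398 arrays in 3, LCN2, SLPI and REG4, and it also had the highest control signal of DUOX2 and NOS2. Over the 1995 genes that passed in all, it was the nearest control in 37.1%, against 33.8% for replicate 2 and 29.1% for replicate 3. Among the arrays labelled NS398, replicate 2 was nearest to the controls in 3 of the 4 genes, LCN2, SLPI and NOX1. Over the 1995 genes NS398 replicate 2 was nearest in 44.5%, against 37.7% for NS398 replicate 3 and 17.8% for NS398 replicate 1. Without control replicate 1, LCN2, SLPI, NOX1 and REG4 all passed, with differences of 2.61, 1.54, -1.24 and -1.52.

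**Figure D3:**
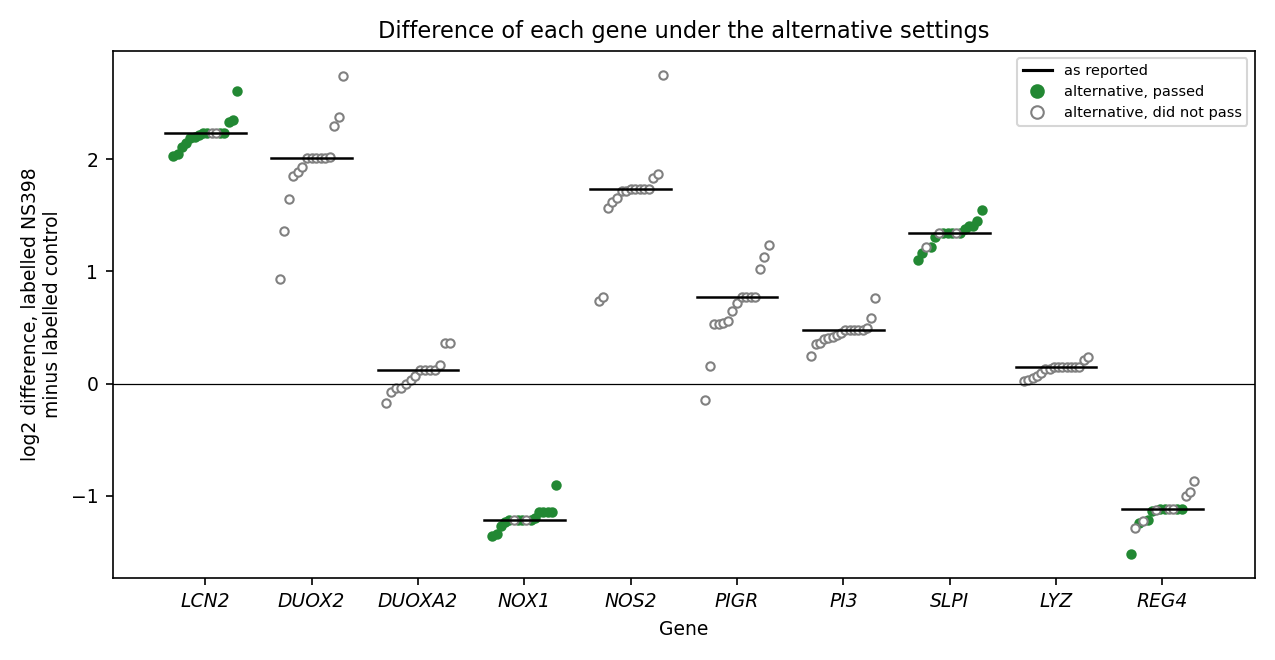
Difference of each gene in log2 units (NS398 minus control, vertical axis) as reported (black line) and under 14 to 16 alternative settings (points, ordered by value), green where it passed. LCN2 stays between 2.02 and 2.61 and NOX1 between -1.35 and -0.91, REG4 passed in 8 of 16, and DUOX2, NOS2 and PIGR move widely without passing in any.

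Several of these genes are also made by neutrophils, macrophages or Paneth cells, so markers of such cells were read beside them. Of 15 neutrophil and monocyte markers, 12 were above background on none of the 6 arrays, among them MPO, ELANE, FCGR3B, PTPRC and CD14. Their summed signal was 492 to 648 in control and 448 to 599 in NS398 arrays. CTSG passed as higher, with all controls below background and 2 of the 3 NS398 arrays above it. The mean of its NS398 arrays was at least 1.32 times the bound of the controls. ITGAM and CSF3R were above background on some arrays. Of 7 measured markers of plasma cells and lymphocytes, only CD79A was above background, on all 6 arrays, and the sum was 265 to 577 in control and 513 to 547 in NS398 arrays. Of 7 measured Paneth cell markers, the defining DEFA5, DEFA6 and REG3A were above background on none, while PRSS2 rose from 358 to 2420 and MMP7 fell from 4016 to 2491, and the sum was 11162 to 14389 in control and 13072 to 14147 in NS398 arrays. Of the markers listed, 2 of the neutrophil and monocyte list, 5 of the Paneth list and 1 of the plasma cell list also stand in the lists of related genes below. The part of these markers in the differences was not tested.

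For the label of the cells, 12 of 16 markers of colon epithelium were above background on all arrays, including EPCAM (25358 in control and 26131 in NS398 arrays), KRT8 and KRT18. CDX1 was above background on no array, and CDH17 and CDX2 on few. KRT20, LGALS4, GPA33 and CLDN7 passed as higher and VIL1 as lower. GPA33 was below background on every control array, and the mean of its NS398 arrays was at least 1.48 times the bound of the controls. The sum of the 16 markers was 177742 to 201821 in control and 209851 to 221419 in NS398 arrays. In RNA of a whole culture, fewer cells of a type and less RNA per cell cannot be told apart. RNA integrity was read from ACTB as its 3' signal over its 5' signal. This was 1.29 ± 0.0301 over the control arrays and 1.56 ± 0.133 over those labelled NS398 (SD, n = 3, exact permutation p = 0.1, two-sided, the smallest that 3 against 3 arrays allow), and that of GAPDH 1.03 ± 0.0551 and 1.10 ± 0.0899 (exact permutation p = 0.5). The part of RNA integrity in the differences of LCN2, SLPI, NOX1 and REG4 was not tested.

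Genes that work with the 10 were read from 8 lists, each gene by its brightest probe set. Of 158 measured genes, 13 rose and 7 fell, that is 8.23% and 4.43%, where 5.23% of all genes rose and 4.85% fell. Their median difference was 0.08 and that of all genes 0.06. By plain limma 0 of the 158 passed, and 34 (21.5%) had p under 0.05 before adjustment, where 17.6% of all genes did. The related genes that passed in the reported fit did not pass by SAM either. Plain limma and SAM are not repeated among the exceptions of each gene below.

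Among oxidase partners and relatives, 1 of 16 measured genes passed. It was GPX2, the glutathione peroxidase of gut epithelium that removes peroxides, which rose from 21618 to 32700 (0.60 ± 0.08, limma adjusted p = 0.00165). Proteins that work in the NOX1 complex did not pass. The organiser NOXO1 had 218 in control and 195 in NS398 arrays (-0.16 ± 0.32), the activator NOXA1 324 and 373 (0.20 ± 0.19) and the membrane partner CYBA 11399 and 9566 (-0.25 ± 0.10). CYBA was lower in every NS398 array than in any control, but only quantile normalisation made it pass, and the sign of NOXO1 turned in 2 of 15 alternatives. DUOX1, the paralogue of DUOX2, lay near background with 75.9 and 70.5 (-0.11 ± 0.48), and its sign turned in 2 of 14 alternatives. The list's median was 0.03.

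In the nitric oxide and arginine list, 5 of 18 genes rose and 1 fell, a median of 0.07. ASS1, which with ASL rebuilds arginine from citrulline for nitric oxide synthases, rose from 3125 to 17075 (2.45 ± 0.13, limma adjusted p = 3.75e-06). In single arrays ASS1 was 2757 to 3853 in control and 16346 to 17617 in NS398 arrays. ARG2, the mitochondrial arginase that competes for arginine, rose from 254 to 643 (1.34 ± 0.20) and the arginine transporter SLC7A1 from 7575 to 14234 (0.91 ± 0.11). DDAH2, which breaks down a natural inhibitor of nitric oxide synthases, fell from 1284 to 463 (-1.47 ± 0.18). The other increases, named after their values were seen, were the arginine transporter SLC7A2 (0.92 ± 0.14) and the endothelial synthase NOS3 (0.84 ± 0.21), the latter in only 7 of 15 alternatives (0.71 to 1.05), not with median centring or without any 1 array other than control replicate 1. The inducible synthase itself, NOS2, was at background as described.

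Of the other antimicrobial proteins, 0 of 25 measured genes passed by either limma fit, with 1 at an unadjusted p under 0.05 in the reported fit and 3 in plain limma. Only 7 of the 25 were above background on any array, and 1 on all. The gene with the smallest p, CAMP, which encodes the cathelicidin peptide and was named after its value was seen, had 48.8 in control, above background on 1 array, and 200 in NS398 arrays (2.03 ± 0.60, limma adjusted p = 0.0723). Without detectable signal in most, differences of defensins and REG3 lectins were not measurable here.

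Among 17 epithelial protease inhibitors beside SLPI and PI3, 1 rose and 2 fell, with a median of -0.25. SERPINA3, antichymotrypsin, an inhibitor of neutrophil cathepsin G, rose from 83.0 to 618 (2.90 ± 0.60, limma adjusted p = 0.0141) from controls of 209, 24.0 and 114, of which replicate 2 was below background, so that the size of the difference is uncertain. It passed in 9 of 15 alternatives, not with median centring or without any 1 of the NS398 arrays (2.00 to 3.56 over all). SERPINA1, the plasma inhibitor of neutrophil elastase, fell from 24677 to 15080 (-0.71 ± 0.11), and SERPINB1, its intracellular counterpart, from 5172 to 3137 (-0.72 ± 0.14), which missed the threshold without NS398 replicate 1. Inhibitors of the same protease thus moved in both directions, SLPI up and SERPINA1 and SERPINB1 down.

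Of 40 innate receptors and members of the NF-kB pathway, 3 rose and 1 fell, with a median of 0.09. CEBPB, a transcription factor of the acute phase response, rose from 8975 to 22432 (1.32 ± 0.10, limma adjusted p = 4.14e-05) and its relative CEBPD from 879 to 1507 (0.78 ± 0.13), the latter not with median centring. The text of the study gives CEBPB as downregulated, the opposite of its sign here. The receptor for tumour necrosis factor TNFRSF1A rose from 1520 to 2417 (0.67 ± 0.17), but in only 7 of 15 alternatives (0.49 to 0.85), not with median centring or without any 1 array other than control replicate 1. MYD88, the adaptor of Toll-like and interleukin-1 receptors, fell from 2142 to 1253 (-0.77 ± 0.12). The NF-kB subunits in the list did not pass.

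In the complement and acute phase list 1 of 19 genes rose and 1 fell, with a median of 0.09. CD55, which protects cells from complement by speeding the decay of its convertases, rose from 2291 to 6662 (1.54 ± 0.16, limma adjusted p = 2.72e-04). CLU, clusterin, fell from 2354 to 1315 (-0.84 ± 0.14). Among 13 genes of lipocalin receptors and iron handling, with a median of 0.33, FTL, the light chain of ferritin, rose from 38971 to 54539 (0.48 ± 0.09) and passed in 10 of 15 alternatives, not with median centring or without control replicate 3 or NS398 replicate 2 (0.31 to 0.55 over all). LCN15, another lipocalin, fell from 2624 to 524 (-2.32 ± 0.27, limma adjusted p = 5.05e-04), so that LCN2 and LCN15 moved in opposite directions.

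Of 10 genes of IgA transport, FCGRT, the heavy chain of the neonatal receptor for immunoglobulin G, fell from 2565 to 918 (-1.48 ± 0.17, limma adjusted p = 4.80e-04). MYO5B, the myosin of apical recycling endosomes, rose from 2249 to 3228 (0.52 ± 0.11), in 9 of 15 alternatives, not with median centring, the replicate block or without control replicate 3 or NS398 replicate 2 (0.40 to 0.57 over all). The median was -0.18. PIGR itself was near background, its brightest probe set above it on 2 arrays of each group.

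**Figure D4:**
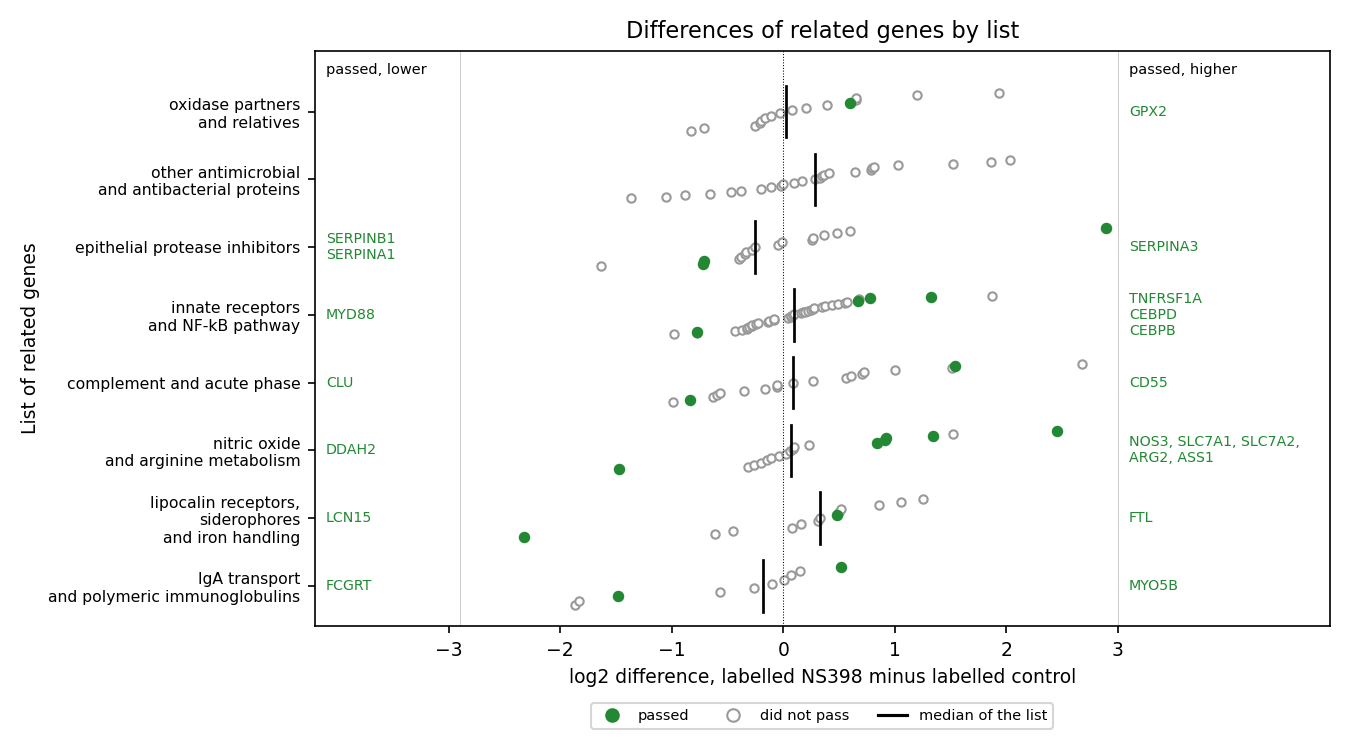
Difference of each related gene in log2 units (NS398 minus control, horizontal axis) by list, green where it passed and named at the side, with the median of each list as a black line. In all, 13 genes rose and 7 fell, the medians of the 8 lists lie between -0.25 and 0.33, and the antimicrobial list has no green point.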

How the data were processed

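Expression was measured in HT29 cells on 6 HG-U133 Plus 2.0 arrays, 3 labelled NS398-treated and 3 labelled control. The deposited values are linear intensity values, 1 signal per probe set, between 0.1 and 80608.2, which the authors had scaled to a trimmed mean of 500 per array. They are not the gcRMA values of the study's methods and have the scale of MAS 5.0 signals, and the submitters' processing notes name affy. The number of arrays limits precision, and dim signals spread most.

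Probe sets were named by the platform annotation and symbols updated through RefSeq by Entrez number (41043 of 41097 single-gene probe sets matched). Log2 signals, without offset or further normalisation, were fitted with limma 3.58.1 (R 4.3.3), lmFit and eBayes with trend and robust estimation, with treatment as the only term, over all 54675 probe sets. This fit was preferred to plain limma, whose prior variance had 1.36 degrees of freedom. Each gene was read from the brightest of its probe sets. The members, lists and tests were chosen with earlier results of these data known. Related genes were named if among the 4 smallest p of those that passed in a list, with DUOX1, DUOXA1, NOXO1, NOXA1 and CYBA named in any case. DUOXA1 had no probe set of its own. Alternatives were median centring, quantile normalisation, limits on dim probe sets (mean log2 signal above 4 or 7), an offset of 32, plain limma, SAM, array weights, the mean of a gene's probe sets, a replicate block and leaving out each array. Plots and the promoter search used Python 3.11.15 with matplotlib 3.10.9.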

Additional observations from a re-analysis of the deposited data

How the results depend on the processing

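The count of 4 member genes that passed was 4 under both rescalings, both limits on dim probe sets, the offset, array weights and the replicate block, and 3 with the mean of a gene's probe sets. By plain limma it was 0, of 24 probe sets in all and 0 related genes, and by SAM 0, of 3 probe sets in all. The cause of the lower counts was not tested. Leaving out 1 array gave 2 to 4 member genes (2 without NS398 replicate 3) and 1826 to 3984 probe sets in place of 3513, with 1876 without control replicate 3, 1826, 1896 and 2340 without NS398 replicates 1, 2 and 3, and 15 to 25 related genes in place of 20. Where a group has 2 arrays left, its spread is shared with the other group. By list, the counts moved with median centring to 2 (innate, from 4), 1 (iron, from 2) and 1 (IgA, from 2), with quantile normalisation to 3 (oxidase, from 1), with the limit above 7 to 5 (protease inhibitors, from 3), 7 (innate) and 4 (iron), with the offset to 1 (antimicrobial, from 0), and without single arrays by at most 2. Median centring changed the split of calls to 864 higher and 1943 lower, from 1782 and 1731.

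The sign of LCN2, SLPI, NOX1, REG4, DUOX2, NOS2, PI3 and LYZ was the same in every alternative run for them. It turned for DUOXA2, which was below background, with median centring (-0.0031), quantile normalisation (-0.040), array weights (-0.039), without control replicate 2 (-0.071) and without NS398 replicate 1 (-0.17; at most 0.36, without NS398 replicate 2), and for PIGR with the mean of its probe sets (-0.15).

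Arrays with the same replicate number did not deviate together (correlations of -0.14, -0.06 and -0.10). This cannot decide whether they were prepared in pairs, since a pairing that left little trace in the signals would go unseen. With the replicate block 4 member genes, 19 related genes and 2462 probe sets passed. With other definitions of background, 13 to 17 of the 18 probe sets were above it on every array of the control group, of the NS398 group or of both, in place of 13. Under these other definitions, the stricter count over all 6 arrays was not made.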
